A study of Homo sapiens with 6 samples.

Results

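The 48 genes described here encode the proteins that license replication origins, start replication and copy DNA at the fork, together with a few fork-protecting and chromatin-linked partners. They were chosen by name, from a list of replication factors, with earlier results of these data known. All 48 were found among the 15651 genes of the expression table. All 48 also passed the filter on low values (3 or more libraries with a normalized count of 4 or higher), which left 15246 genes for testing. By role they comprised 15 licensing genes, 8 origin-firing genes, 15 polymerase and clamp genes, 5 genes of single-strand binding and Okazaki fragment joining, 3 fork-protection genes and 2 chromatin-linked genes. RNA was sequenced from MDA-MB-231, a long-used cell line of human triple-negative breast cancer, in 3 libraries given the solvent DMSO and 3 libraries given BRL-50481, a small-molecule inhibitor of the cAMP phosphodiesterase PDE7A. All 6 libraries came from this 1 line with no engineered allele, so the comparison is that of 1 compound against its solvent. The treatment protocol in the labels, the series' design text and the study's own description all give 50 µM for 72 h, taken here as the dose and time, and a treatment field of the labels differs from them with 5 µM for 48 h. The question was how transcripts of the replication machinery differed between the treated and solvent libraries, and whether the licensing genes differed more than the polymerase and clamp genes.

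Replication origins are prepared before S phase, when the origin recognition complex and CDC6 bind DNA and CDT1 delivers the ring-shaped MCM2 to MCM7 helicase, a step known as licensing. At the start of S phase the kinase CDC7 with its activator DBF4, and cyclin-dependent kinases, recruit CDC45 and the GINS complex to the loaded ring, which then unwinds DNA. Polymerase alpha with primase lays down primers, RFC loads the PCNA clamp, and polymerases delta and epsilon copy the strands. Many of these genes are textbook targets of E2F transcription factors and peak in transcript level around the entry into S phase.

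The libraries held 30750573 to 33446984 reads on genes, and the lowest count of any of the 48 genes in any library was 194 reads, for ORC1, at which counting error alone is 7.18%. Among the solvent libraries, replicate 1 stood apart: the chi-square of its counts over all genes, divided by the degrees of freedom, was 22.1 against replicate 2 and 13.7 against replicate 3, compared with 3.99 between replicates 2 and 3 and 2.63 to 3.53 among the treated libraries. VIM, CD44, AXL and CAV1, which MDA-MB-231 cells express, were abundant in all 6 libraries (lowest normalized count 7830, for CAV1). The progesterone receptor gene PGR stayed at or below 7.75. CDH1, the epithelial cadherin, lay between 31.7 and 48.6 in DMSO and between 93.1 and 105 in BRL-50481. GATA3, listed as a marker expected near 0, lay between 166 and 228 in DMSO and between 250 and 299 in BRL-50481. Both were thus higher in every treated library. The other 2 listed markers were not analysed here. The labels number 3 replicates in each group, and p-values below measure the spread between these samples only.

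Most of the replication genes were lower after BRL-50481. With limma on log2(normalized count + 1) and Benjamini-Hochberg adjustment over all 15246 genes, 31 of the 48 were lower at an adjusted p under 0.05, 4 were higher and 13 were not called. Over all genes tested, 29.8% were called lower and 28.9% higher, 58.7% in either direction. The median log2 fold change (BRL-50481 minus DMSO) was -0.44 over the 48 genes and 0.01 over all genes. The 4 higher genes were TIMELESS, POLA2, ORC3 and ORC5, and without DMSO replicate 1 the number higher was 7, with POLA1, DBF4 and POLE added. That fit called more of all genes too, 4876 higher and 4933 lower, against 4400 and 4546 with all 6 libraries. CLSPN, UHRF1, MCM10, PCNA, MCM2 and MCM3 fell by more than 1 on the log2 scale, that is 6 of 48 genes against 2.98% of all genes, and no gene of the list rose by that much, against 5.06% of all genes. In 32 of the 48 genes every treated library lay below every DMSO library (32.3% of all genes), in 7 every treated library lay above (31.9% of all genes), and in 9 the groups overlapped. The 48 genes together took 0.311% to 0.313% of the reads on genes in DMSO and 0.227% to 0.228% in BRL-50481. In RNA from whole cultures, fewer cells in S phase and less replication RNA per cell cannot be told apart.

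**Figure D1:**
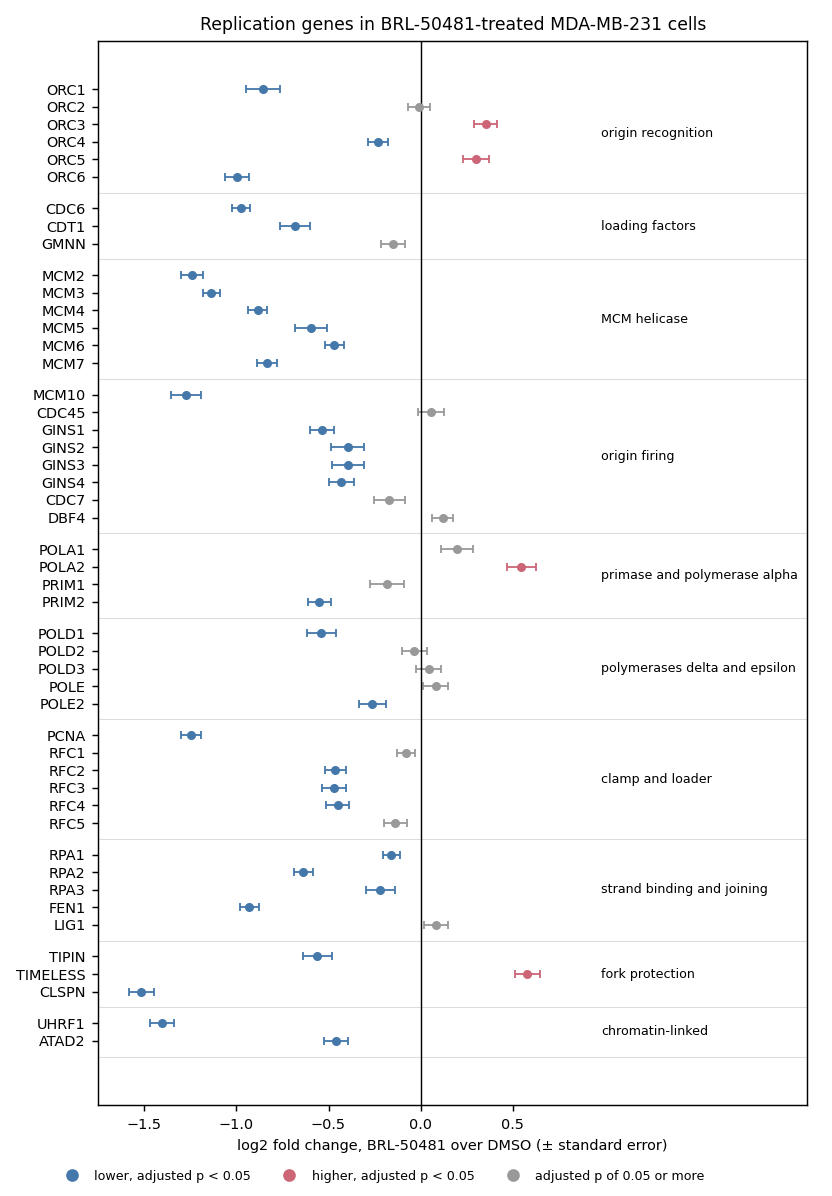
Log2 fold change of each of the 48 replication genes (BRL-50481 over DMSO, log2 of normalized count + 1; points, limma estimates; bars, standard error; 3 libraries a group), ordered by role. Blue points are the 31 genes called lower, red points the 4 called higher and grey points the 13 not called; MCM2 to MCM7 all lie to the left of zero, whereas the origin recognition and polymerase genes lie on both sides.

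All 6 subunits of the MCM helicase were lower after treatment, and the median of their log2 fold changes was -0.86. MCM2 stood at 3339.8, 3239 and 3419.9 normalized counts in DMSO replicates 1, 2 and 3 and at 1377, 1518 and 1339.5 in the BRL-50481 replicates. MCM3 stood at 7328, 7249 and 7104 in DMSO and at 3336, 3254 and 3274 in BRL-50481. For both genes the treated libraries were closely grouped and far below the solvent libraries, with log2 fold changes of -1.24 ± 0.06 (SE, limma adjusted p = 4.91e-09) for MCM2 and -1.14 ± 0.05 (SE, limma adjusted p = 1.5e-09) for MCM3. MCM4 went from 3849.8, 3657 and 3675 in DMSO to 1957, 2076 and 2023 in BRL-50481. MCM7 went from 7278, 8230.4 and 7349, with DMSO replicate 2 the highest, to 4207, 4304 and 4274. Neither gene's groups overlapped, and the log2 fold changes were -0.88 ± 0.05 (SE, limma adjusted p = 2.4e-08) and -0.84 ± 0.05 (SE, limma adjusted p = 5.66e-08). MCM5 was at 1063, 1044 and 1057 in DMSO and at 689, 799 and 615 in BRL-50481. MCM6 was at 2489, 2369 and 2443 in DMSO and at 1771, 1759.7 and 1746 in BRL-50481. These were the smallest falls of the 6 subunits, -0.60 ± 0.09 (SE, limma adjusted p = 5.98e-05) for MCM5, whose treated libraries were the most spread in proportion to their mean, and -0.47 ± 0.05 (SE, limma adjusted p = 5.67e-06) for MCM6, and again no library of one group reached the range of the other. On hg38 (GENCODE 44 gene models) MCM2 lies on chromosome 3 from 127598410 to 127622436 on the plus strand and MCM3 on chromosome 6 from 52264014 to 52284881 on the minus strand. MCM5 lies on chromosome 22 from 35400134 to 35425431 on the plus strand, MCM6 on chromosome 2 from 135839626 to 135876443 on the minus strand, and MCM7 on chromosome 7 from 100092233 to 100101940 on the minus strand.

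**Figure D2:**
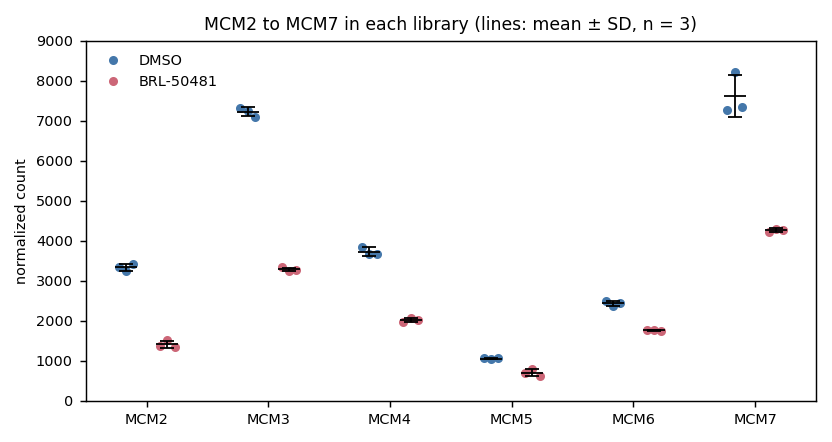
Normalized count (linear axis from 0) of MCM2 to MCM7 in each of the 6 libraries; points are libraries, lines the mean ± SD of 3 libraries, blue DMSO and red BRL-50481. In all 6 genes the treated points lie below the solvent points, with the means of MCM3 at 7227 ± 113 and 3288 ± 42.7 and those of MCM7 at 7619 ± 530.5 and 4262 ± 49.6.

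The origin recognition complex, which marks origins for the helicase, was split: ORC1, ORC4 and ORC6 fell, ORC3 and ORC5 rose and ORC2 was not called. ORC6, the most abundant subunit per kilobase in DMSO, stood at 1491, 1599.7 and 1656 normalized counts in DMSO and at 794, 785 and 795 in BRL-50481. ORC1, whose product is the subunit made and removed with the cell cycle, stood at 365, 391 and 364 and at 195, 212 and 211. Both were reduced in every treated library, with log2 fold changes of -0.998 ± 0.06 (SE, limma adjusted p = 4.58e-08) and -0.85 ± 0.09 (SE, limma adjusted p = 4.93e-06). ORC3, a core subunit, was at 1104, 1108 and 1027 in DMSO and at 1426, 1316 and 1399 in BRL-50481. ORC2, another core subunit, was at 1585, 1472 and 1605 in DMSO and at 1578, 1503 and 1549 in BRL-50481. The ORC3 groups did not overlap and the gene rose by 0.35 ± 0.06 on the log2 scale (SE, limma adjusted p = 0.000322), whereas the ORC2 groups overlapped, with a difference of -0.01 ± 0.06 (SE, limma adjusted p = 0.905). ORC5 rose by 0.30 and ORC4 changed by -0.23 on the same scale, both without overlap between groups.

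Of the factors that bring the helicase to the origin, CDC6 and CDT1 fell and GMNN, the inhibitor of CDT1, was not called. CDC6 stood at 4077, 4177 and 4113 normalized counts in DMSO and at 2095, 2110.2 and 2081 in BRL-50481. CDT1 stood at 1174, 1498 and 1362 in DMSO, with replicate 1 the lowest, and at 793, 862 and 846 in BRL-50481. CDC6 was at about the same level in each of the treated libraries and fell by 0.98 ± 0.05 on the log2 scale (SE, limma adjusted p = 5.76e-09), and CDT1 fell by 0.68 ± 0.08 (SE, limma adjusted p = 1.44e-05). GMNN was at 937, 964 and 1037 in DMSO and at 898, 895 and 853 in BRL-50481, which is a difference of -0.15 ± 0.07 (SE, limma adjusted p = 0.0698). Its treated libraries lay just below the solvent libraries without overlap, a gap that did not pass the adjusted threshold. The gap did pass without DMSO replicate 1 (difference -0.18), in a fit that called more of all genes.

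Among the genes that turn a licensed origin into a fork, MCM10 and all 4 GINS subunits fell, whereas CDC45 and both parts of the CDC7 kinase were not called. MCM10, which helps to activate the loaded helicase, stood at 1664, 1465 and 1529 normalized counts in DMSO and at 640.3, 705 and 582 in BRL-50481. This was the third largest fall of the 48 genes, -1.27 ± 0.08 (SE, limma adjusted p = 4.43e-08), and its groups were far apart. The 4 GINS genes, partners of the helicase at the fork, had log2 fold changes between -0.54 for GINS1 and -0.39 for GINS3, each without overlap between the groups. CDC45, the remaining partner of the active helicase, ranged from 578 to 621 in DMSO and from 599 to 637 in BRL-50481, which overlap. CDC7 was at 799.7, 731 and 796 in DMSO and at 699, 617 and 756 in BRL-50481. DBF4, the most abundant of the 8 per kilobase, was at 1396, 1345 and 1397 in DMSO and at 1559, 1443 and 1496 in BRL-50481. The CDC7 groups overlapped (difference -0.17 ± 0.08, SE, limma adjusted p = 0.0963). The CDC7 log2 fold change depended on single libraries, at -0.24 and called lower without BRL-50481 replicate 3 (limma adjusted p = 0.0472) and at -0.09 without BRL-50481 replicate 2 (limma adjusted p = 0.39). The DBF4 libraries lay slightly higher in BRL-50481 (difference 0.12 ± 0.06, SE, limma adjusted p = 0.0937). Without DMSO replicate 1 the DBF4 difference was little changed, 0.13, and passed the threshold in a fit that called more of all genes.

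The 4 genes of the priming enzyme went different ways: POLA2 rose, PRIM2 fell, and POLA1 and PRIM1 were not called. POLA2, the accessory subunit of polymerase alpha, stood at 423, 484 and 465 normalized counts in DMSO and at 658, 673 and 672 in BRL-50481. PRIM2, the large primase subunit and the most abundant of the 4 per kilobase, stood at 1511, 1568 and 1570.0 in DMSO and at 999.7, 1063 and 1115 in BRL-50481. The groups of both genes were separate, in opposite directions, with log2 fold changes of 0.55 ± 0.08 (SE, limma adjusted p = 4.85e-05) and -0.55 ± 0.06 (SE, limma adjusted p = 6.69e-06). POLA1, the catalytic subunit, was at 974, 764 and 948 in DMSO and at 1039.9, 1044 and 981 in BRL-50481. PRIM1, the catalytic primase subunit, was at 628, 495 and 558 in DMSO and at 476, 514 and 485 in BRL-50481. POLA1 was higher in each treated library by a small margin (difference 0.20 ± 0.09, SE, limma adjusted p = 0.0683) and passed the threshold without DMSO replicate 1, and the PRIM1 groups overlapped (difference -0.18 ± 0.09, SE, limma adjusted p = 0.107), with the call made when DMSO replicate 2 was left out. In GENCODE 44, 16.8% of the exon bases of POLA2 and 15.1% of those of PRIM1 are shared with another gene on the same strand. How reads there were counted over the authors' UCSC annotation was not tested.

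Polymerases delta and epsilon differed less between the groups. Of their 5 listed genes 2 were called, both lower (40%, against 29.8% of all genes tested). POLD1, the catalytic subunit of polymerase delta, stood at 1109, 1367 and 1309.5 normalized counts in DMSO, with replicate 1 the lowest, and at 858, 900.5 and 838 in BRL-50481. POLE2, the second subunit of polymerase epsilon, stood at 623, 662 and 612 in DMSO and at 527, 529 and 526 in BRL-50481. Both fell without overlap, by 0.54 ± 0.08 on the log2 scale (SE, limma adjusted p = 7.01e-05) and by 0.26 ± 0.07 (SE, limma adjusted p = 0.0071). POLD2, the most abundant of the 5 per kilobase, was at 3829.9, 4642 and 4142 in DMSO and at 3898, 4262 and 4130.1 in BRL-50481. POLE, the catalytic subunit of polymerase epsilon, was at 1447, 1262 and 1233 in DMSO and at 1372, 1363 and 1426 in BRL-50481. For both the groups overlapped, as they did for POLD3, and the differences were -0.03 ± 0.07 (SE, limma adjusted p = 0.684) for POLD2 and 0.08 ± 0.07 (SE, limma adjusted p = 0.329) for POLE, the latter called higher without DMSO replicate 1.

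The sliding clamp PCNA showed the largest fall of the 15 polymerase and clamp genes. PCNA, which tethers polymerases to DNA, stood at 6628, 7339 and 7181 normalized counts in DMSO and at 3035, 2953 and 2913 in BRL-50481, a fall of 1.25 ± 0.05 on the log2 scale (SE, limma adjusted p = 1.83e-09). The mean was 7049 ± 373 in DMSO and 2967 ± 62.4 in BRL-50481, and the highest treated library lay far below the lowest DMSO library. Of the clamp loader, RFC2, RFC3 and RFC4 fell by similar amounts, 0.46, 0.47 and 0.45 on the log2 scale. RFC4, the most abundant loader subunit per kilobase, stood at 1719.5, 1862 and 1729 in DMSO and at 1354, 1233 and 1299 in BRL-50481 (limma adjusted p = 3.56e-05). RFC1, the large subunit, was at 4353, 3969 and 4224 in DMSO and at 3961, 3895 and 4013 in BRL-50481, groups that overlapped, with a difference of -0.08 ± 0.05 (SE, limma adjusted p = 0.199). RFC5 overlapped as well, at -0.14 ± 0.06 (SE, limma adjusted p = 0.0766).

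Of the genes that coat single strands and join Okazaki fragments, FEN1 and RPA2 fell most and LIG1 was not called. FEN1, the nuclease that trims the flaps of Okazaki fragments, stood at 3193, 3248 and 3330.0 normalized counts in DMSO and at 1703, 1658 and 1767 in BRL-50481. LIG1, the ligase that then seals the nick, stood at 851, 842 and 801 in DMSO and at 865, 906 and 876 in BRL-50481. FEN1 thus fell by 0.93 ± 0.05 on the log2 scale (SE, limma adjusted p = 1.76e-08), whereas the LIG1 libraries were slightly higher in BRL-50481 without overlap and without passing the test (difference 0.09 ± 0.06, SE, limma adjusted p = 0.275). RPA2, the middle subunit of the single-strand binding complex, stood at 2723, 2830.0 and 2743 in DMSO and at 1749, 1766 and 1814 in BRL-50481. It fell by 0.64 ± 0.05 on the log2 scale (SE, limma adjusted p = 3.64e-07), and the log2 fold changes of RPA1 and RPA3, the large and the small subunit, were -0.16 and -0.22. RPA3 passed narrowly (limma adjusted p = 0.0283), and it no longer passed when any 1 of DMSO replicates 2 and 3 or any 1 of the treated replicates was left out (adjusted p up to 0.111), nor under median centring or quantile normalization.

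Within the complex that protects the fork, TIMELESS rose while its partner TIPIN and the checkpoint mediator CLSPN fell. CLSPN stood at 3364, 3379.6 and 3308 normalized counts in DMSO and at 1306, 1121 and 1091 in BRL-50481. This was the largest fall of the 48 genes, -1.52 ± 0.07 on the log2 scale (SE, limma adjusted p = 3.19e-09), to 35.0% of the DMSO mean. TIPIN stood at 630.1, 670.0 and 589 in DMSO and at 439.9, 427 and 411 in BRL-50481. TIMELESS stood at 964, 839 and 878 in DMSO and at 1329.9, 1366 and 1309 in BRL-50481. No library of one group fell in the range of the other for either gene, and the log2 fold changes were -0.56 ± 0.08 (SE, limma adjusted p = 4.74e-05) for TIPIN and 0.58 ± 0.07 (SE, limma adjusted p = 8.78e-06) for TIMELESS. In GENCODE 44, 21.1% of the exon bases of TIPIN are shared with a ribosomal protein pseudogene on the same strand.

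Both chromatin-linked genes fell. UHRF1, which reads hemimethylated DNA behind the fork and recruits the maintenance DNA methyltransferase, stood at 1555, 1488 and 1620.0 normalized counts in DMSO and at 562, 609 and 586 in BRL-50481. ATAD2, a bromodomain ATPase, stood at 7494, 6101 and 6504 in DMSO, with replicate 1 the highest, and at 4994, 4747 and 4835 in BRL-50481. All treated libraries were below all solvent libraries for both genes, with log2 fold changes of -1.41 ± 0.07 for UHRF1 (SE, limma adjusted p = 4.03e-09) and -0.46 ± 0.07 for ATAD2 (SE, limma adjusted p = 5.96e-05).

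Set side by side, the licensing genes were lower than the polymerase and clamp genes by both the number called and the median. Most of the separation in the median came from MCM2 to MCM7. Of the 15 licensing genes 11 (73.3%) were lower, 2 (13.3%) higher and 2 not called, with a median log2 fold change of -0.68. Of the 15 polymerase and clamp genes 7 (46.7%) were lower, 1 (6.67%) higher and 7 not called, with a median of -0.18. Over all genes tested 29.8% were lower and 28.9% higher, with a median of 0.01. Within each treated library, the median log2 difference from the DMSO mean ran from -0.78 to -0.63 for the licensing genes and from -0.23 to -0.18 for the polymerase and clamp genes, so the ranges over the 3 libraries did not overlap. Without MCM2 to MCM7 the separation narrowed: the other 9 licensing genes had 5 lower (55.6%) and 2 higher (22.2%, near the share of all genes) and a median of -0.23. Without PCNA the other 14 polymerase and clamp genes had a median of -0.16. Parts of the roles went against the order, with medians of -0.12 for the 6 origin recognition genes and -0.46 for the 6 clamp and loader genes. The 3 loading factors had a median of -0.68. The median was 0.01 for the 4 primase and polymerase alpha genes and -0.03 for the 5 polymerase delta and epsilon genes. No test was run on these medians, since the roles were assigned with results of these data known. The 8 origin-firing genes lay between the licensing and the polymerase and clamp genes, with 5 lower (62.5%), 0 higher and a median of -0.39. The 5 strand binding and joining genes had 4 lower (80%) and a median of -0.22.

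**Figure D3:**
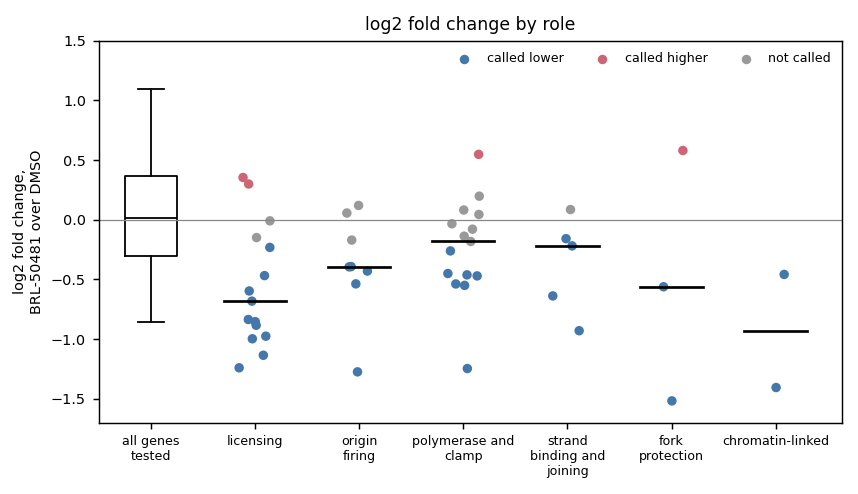
Log2 fold change (BRL-50481 over DMSO) of the 48 genes grouped by role, beside all 15246 genes tested; points are genes coloured by call, horizontal lines the medians of each role, and the box shows the quartiles of all genes with whiskers from the 5th to the 95th percentile. The licensing median of -0.68 lies below the polymerase and clamp median of -0.18, and each role except the chromatin-linked genes has members at or above zero.

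Levels within a complex were far from even in either group. Per kilobase of transcript (GENCODE 44 canonical transcripts), the level in DMSO ran from 305 normalized counts for MCM5 to 3088 for MCM7, 10.1 times as much. In BRL-50481 the same genes were again the lowest and highest of the 6, at 203 and 1727. Among the origin recognition genes ORC1 was the lowest in both groups, at 119.6 in DMSO and 66 in BRL-50481 per kilobase. The highest was ORC6 in DMSO, at 979.7, and ORC3 in BRL-50481, at 553 against 489.9 for ORC6. The levels per kilobase of the RFC genes ran from 439 to 1297 in DMSO and from 317 to 949 in BRL-50481, with RFC3 lowest and RFC4 highest in both. GINS2 was the lowest GINS gene, at 144 and 109, and GINS1 the highest, at 274 and 188. Of the RPA genes RPA2 was the highest and RPA3 the lowest per kilobase in both groups, with RPA2 at 1746 and 1121. Apart from the exchange of ORC6 and ORC3, the lowest and highest subunits of these 5 complexes were the same genes in both groups.

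**Figure D4:**
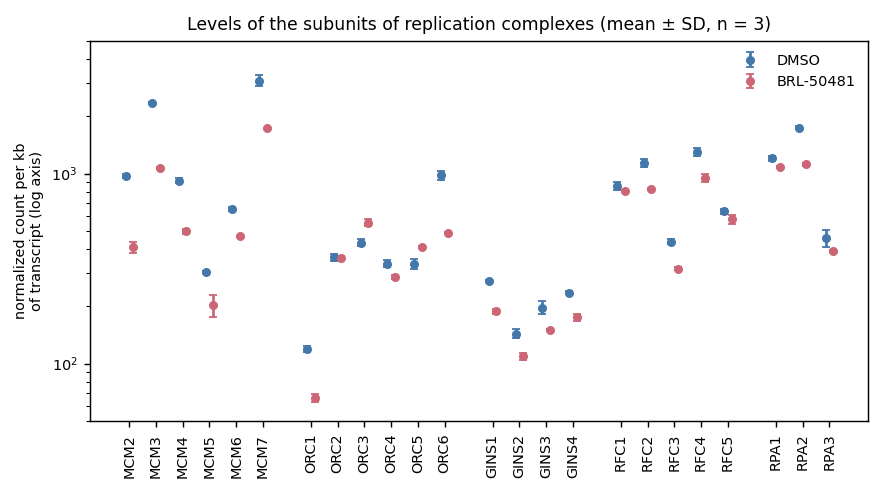
Level of each subunit of 5 replication complexes in normalized counts per kilobase of transcript (log axis; points, means; bars, SD; 3 libraries a group), blue DMSO and red BRL-50481. MCM5 and MCM7 bound the MCM genes at 305 and 3088 in DMSO, and ORC3 and ORC5 are the subunits of the origin recognition complex with the red point above the blue.

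Ratios of partner genes within a library do not depend on how libraries were scaled, and 10 such pairs were compared. The ratio was lower in every treated library than in every DMSO library for 8 pairs and higher for 1 pair, and the groups overlapped for 1 pair. Over all single genes tested, the groups lay apart with BRL-50481 below in 32.3% and above in 31.9%. No such share was computed for ratios of other genes, and these 10 pairs were chosen with earlier results known. With 3 libraries against 3 the two-sided exact permutation test cannot give a p below 0.1, which 9 pairs reached (0.111 adjusted over the 10 pairs), so none could pass 0.05. The log2 ratio of TIPIN to TIMELESS was -0.61, -0.32 and -0.57 in the DMSO replicates and -1.59, -1.67 and -1.67 in the BRL-50481 replicates. That of FEN1 to LIG1 was 1.91, 1.95 and 2.05 in DMSO and 0.98, 0.87 and 1.01 in BRL-50481. These were the widest shifts of the 10, by -1.14 and -1.02 on the log2 scale. The ratio of ORC1 to ORC2 shifted by -0.84. That of CDT1 to its inhibitor GMNN was 0.33, 0.64 and 0.39 in DMSO and -0.18, -0.05 and -0.01 in BRL-50481, a shift of -0.53. Shifts were smaller for RFC4 to RFC1 (-0.37), MCM7 to MCM6 (-0.37), POLE2 to POLE (-0.34) and CDC7 to DBF4 (-0.29). The ratio of PRIM1 to PRIM2 was the 1 that was higher, by 0.37, with both genes at lower mean counts in BRL-50481. POLA2 to POLA1 overlapped, with DMSO replicate 2 at the level of the treated libraries (difference 0.35, two-sided exact permutation p = 0.2).

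**Figure D5:**
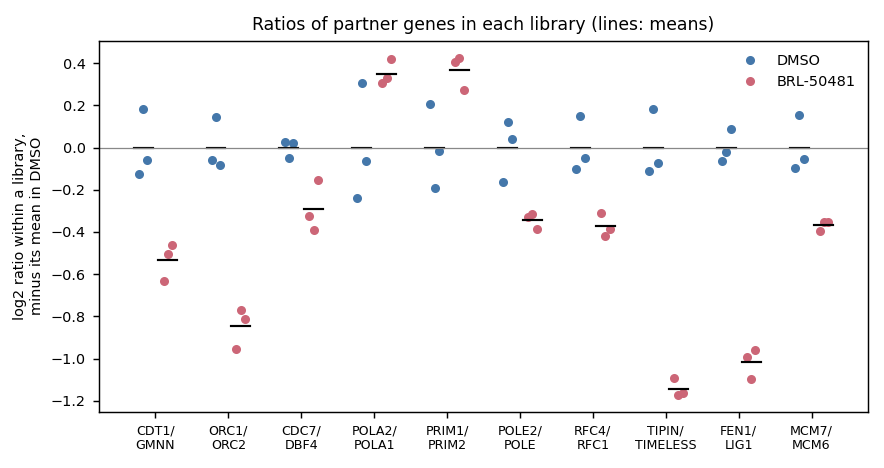
Log2 ratio of 10 pairs of partner genes in each library, shown as the difference from the pair's mean in DMSO (points, 3 libraries a group; lines, group means; blue DMSO, red BRL-50481). TIPIN over TIMELESS and FEN1 over LIG1 lie lowest, at means of -1.14 and -1.02, and only POLA2 over POLA1 and PRIM1 over PRIM2 have treated means above zero.

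Promoter sequence was examined as well, without a test. RefSeq promoter windows (GRCh38.p14, 250 bases before to 50 after a transcript start, 1 or more windows a gene) were matched for 41 of the 48 genes, 54 windows in all. An E2F-type motif was searched as TTTCCCGC, TTTCGCGC, TTTGCCGC or TTTGGCGC on both strands, and matches on opposite strands can share bases. At least 1 match lay in the windows of 22 of the 41 genes (53.7%), against 6.35% of the 11592 tested genes with a window and 3.99% of all 27305 genes with one. A match was found for 15 of the 25 matched genes that fell, 2 of the 4 that rose and 5 of the 12 not called. By role it was found for 61.5% of the 13 matched licensing genes and 42.9% of the 14 matched polymerase and clamp genes. The CCAAT box (CCAAT, both strands) was in 61.0% of the 41 genes, against 42.9% of the tested genes. TTTGAA, the core of the CHR element known from genes of G2 and mitosis, was in 1 of the 41 genes, DBF4, against 13.9% of the tested genes. Such matches are letters in a window and describe neither a bound site nor a cause.

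The 120 bases just before the transcript start are printed 5′ to 3′ on the gene's strand for 5 genes that fell, 4 with an E2F-type match (capitals) and MCM10, among the largest falls, without one. They were chosen after the calls were known, from stretches that no GENCODE 44 exon covers. The stretches are chr2:135876444-135876563 (minus strand) for MCM6, chr16:88803669-88803788 (plus) for CDT1, chr16:85688955-85689074 (minus) for GINS2, chr15:66356686-66356805 (minus) for TIPIN and chr10:13161438-13161557 (plus) for MCM10.
MCM6: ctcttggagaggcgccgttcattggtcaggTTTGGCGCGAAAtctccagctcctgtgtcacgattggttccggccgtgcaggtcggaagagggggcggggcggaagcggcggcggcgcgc
CDT1: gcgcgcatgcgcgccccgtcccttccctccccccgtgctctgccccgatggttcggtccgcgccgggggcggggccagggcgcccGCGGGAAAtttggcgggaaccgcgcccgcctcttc
GINS2: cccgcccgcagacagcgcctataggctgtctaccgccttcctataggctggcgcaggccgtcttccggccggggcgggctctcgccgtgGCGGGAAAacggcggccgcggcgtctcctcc
TIPIN: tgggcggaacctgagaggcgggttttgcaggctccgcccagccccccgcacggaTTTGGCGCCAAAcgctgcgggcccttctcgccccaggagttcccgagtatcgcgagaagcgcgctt
MCM10: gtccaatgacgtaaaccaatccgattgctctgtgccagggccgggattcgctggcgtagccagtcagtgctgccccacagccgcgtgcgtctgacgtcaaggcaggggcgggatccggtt
Counted from the transcript start, the match begins at -35 in CDT1 and at -31 in GINS2. MCM6 holds a pair of overlapping matches on opposite strands at -90 and -86, and TIPIN a like pair at -66 and -62. Another such pair lies in the MCM6 window before the printed stretch, at -152 and -148. Of the genes that rose, ORC3 has a match at -12 and POLA2 one at -53, whereas the windows of ORC5 and TIMELESS hold none. Of the partners TIPIN and TIMELESS, the gene that fell has a match and the gene that rose has none. Of FEN1 and LIG1 it is the other way: FEN1, which fell, has none, and LIG1, not called, has a match at -114. A match was present both in genes that fell and in genes that rose.

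A second list of 43 replication-related genes outside the 48 went both ways. Of its members 42 were tested (PCLAF and STN1 under older symbols, and 1 gene was not analysed here), and 19 were lower, 14 higher and 9 not called, with a median log2 fold change of -0.09. The shares of 45.2% lower and 33.3% higher stand against 29.8% and 28.9% of all genes. The largest falls were those of SLBP, LRWD1 and DSCC1. SLBP, which binds the stem-loop of histone mRNAs, stood at 2816, 3119 and 3132 normalized counts in DMSO and at 1700.3, 1658 and 1722 in BRL-50481, a log2 fold change of -0.83 ± 0.06 (SE, limma adjusted p = 9.76e-08). LRWD1, a partner of the origin recognition complex, stood at 1106, 1247 and 1275 in DMSO and at 656, 747 and 778 in BRL-50481 (-0.73 ± 0.08, SE, limma adjusted p = 5.58e-06). DSCC1, part of an alternative clamp loader, stood at 586, 617 and 570.0 in DMSO and at 373, 378 and 368 in BRL-50481 (-0.66 ± 0.08, SE, limma adjusted p = 8.47e-06). The treated libraries of all of these genes lay below the solvent libraries without overlap. The largest rises were those of PRIMPOL, FAM111A and STN1. PRIMPOL, which can restart a stalled fork by making a new primer, stood at 247, 283 and 261 in DMSO and at 394, 446 and 395 in BRL-50481 (0.64 ± 0.10, SE, limma adjusted p = 7.37e-05). FAM111A, a protease that binds PCNA, stood at 956, 941 and 1049 in DMSO and at 1556, 1491 and 1496 in BRL-50481 (0.63 ± 0.06, SE, limma adjusted p = 2.72e-06). For both, each treated library was above each solvent library. STN1, a subunit of the telomere and fork complex CST, stood at 882, 904 and 835 in DMSO and at 1368, 1358 and 1248 in BRL-50481 (0.60 ± 0.07, SE, limma adjusted p = 5.07e-06), again without overlap, with 17.9% of its exon bases shared with a long non-coding RNA on the same strand.

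A list of 14 genes of mitosis, also chosen with earlier results known, moved the other way from the replication genes. Of these 13 were higher in BRL-50481 (92.9%, against 28.9% of all genes tested) and UBE2C was not called. Their median log2 fold change was 0.82, against 0.01 over all genes. Their summed normalized count ran from 60460 to 65051 in the DMSO libraries and from 110714 to 111547 in the BRL-50481 libraries, while that of the 48 replication genes ran from 101524 to 102473 and from 70444 to 70639. CCNB1, the mitotic cyclin, stood at 2329, 2406 and 2267 in DMSO and at 7152, 7356 and 7438 in BRL-50481 (1.65 ± 0.05, SE, limma adjusted p = 1.3e-10). The groups were far apart on both sums, and the part that cell cycle phase has in the differences of the replication genes was not tested.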

How the data were processed

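Total RNA libraries of MDA-MB-231 cells (3 DMSO, 3 BRL-50481) were aligned by the authors with STAR 2.7.1a to hg38 and counted per gene with HTSeq on the reverse strand over a UCSC annotation. The labels name oligo-dT stranded libraries and the series text ribosomal depletion. The authors deposited counts divided by DESeq2 1.28 size factors, a normalized signal of 15651 genes. The stated floor is 4 in 3 samples, but 405 of the deposited genes reach it in 2 libraries only and were left out of the tests here. All nonzero values were whole multiples of 1 read (100% within a tolerance of 0.001), so reads could be recovered for edgeR and DESeq2. The deposited table also holds the authors' own comparison (mean signal, log2 fold change with its error, a test score, p-values and adjusted p-values), which was not used.

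Differences were fitted with limma 3.58.1 (trend) on log2(normalized count + 1), R 4.3.3, without a replicate term; this follows the unit, since the values are not raw counts. Genes were kept where 3 or more libraries had a normalized count of 4 or higher, and an adjusted p under 0.05 was called. A fold change on this scale understates the change of low genes. Alternatives were a pseudocount of 0.5 or 4, no filter, a mean of at least 20, median centring, quantile normalization, edgeR 4.0.16, DESeq2 1.42.0, a replicate block, leaving out each library, and a loess correction (span 0.5) for transcript length and GC content (GENCODE 44, 96.52% of genes matched). The fits were tested on simulated data. The genes, roles, lists and pairs were chosen with earlier results of these data known. Named with values of every library were MCM2 to MCM7 and, in each other role, the most abundant gene per kilobase, the gene with the largest change and the members of the fixed pairs, and in the second list the 3 largest called changes in each direction.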

Additional observations from a re-analysis of the deposited data

How the results depend on the processing

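Of the 48 replication genes, 36 kept their call and direction in all 16 alternatives, among them the 6 MCM subunits, PCNA, CLSPN, UHRF1 and the 4 genes called higher. With edgeR, DESeq2, either other pseudocount, no filter or a mean of at least 20, all 48 calls were as reported. When 1 library was left out, the licensing median was -0.78 to -0.60 and the polymerase and clamp median -0.23 to -0.12. In those fits 30 to 32 of the 48 genes were lower and 4 to 7 higher. The calls over all genes moved as well, with 4027 to 4933 lower and 3751 to 4876 higher. With median centring the polymerase and clamp median was -0.15, and with the length and GC correction the licensing median was -0.62. Genes not called changed sign in some fits, all without passing the test. The ORC2 log2 fold change was 0.0209 with median centring, 0.0369 with quantile normalization and -0.0476 to 0.0144 when 1 library was left out. The POLD2 log2 fold change was 0.0127 with quantile normalization, 0.0242 with the length and GC correction and -0.0991 to 0.0396 when 1 library was left out. With the length and GC correction the POLD3 log2 fold change was -0.0344 and the POLE log2 fold change -0.0300. POLA1 and DBF4 were called higher with median centring or quantile normalization, and RFC1, RFC5, CDC7, GMNN and ORC2 were called lower with the length and GC correction, CDC7 also without BRL-50481 replicate 3. The cause of these shifts was not tested.

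Same-numbered libraries of the 2 groups had deviations that correlated at 0.0514 to 0.121, under 0.1 in at least 1 pair, so the numbers were not taken to pair the samples, although 5 of 6 libraries correlated best with their own number. With a replicate block, 31 genes were lower and 4 higher, the same as without it. Limits on depth are small for these genes, whose lowest count is 194 reads. The comparison covers 1 cell line and 1 dose.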
